A study of Homo sapiens with 9 samples.

Results

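Keratin genes were followed in A549, an established human lung adenocarcinoma cell line, across libraries that carried a hairpin labelled for HES1, a hairpin labelled for HES4 or a control hairpin. The genes are the 8 keratins KRT7, KRT8, KRT80 and KRT81 (type II) and KRT10, KRT15, KRT18 and KRT19 (type I), taken by symbol from a table of 60664 genes. All 8 passed the filter on low counts, which left 16903 genes tested. The 9 RNA sequencing libraries formed 3 groups of 3, named shHES1, shHES4 and shCtrl after the short hairpin RNA in the labels. Such hairpins are cut by the cell to small RNAs that guide the silencing of a matching transcript, and the proteins HES1 and HES4 are repressors of transcription of the basic helix-loop-helix class. The series title states the question as what HES1 and HES4 do to gene expression in this line. All groups share the A549 background and a hairpin; the labels give no hairpin sequence, no time after its introduction and no word on clones, pools or separate cultures. The p-values therefore measure only the spread between these libraries, which may be technical.

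Keratins are the intermediate filament proteins of epithelial cells. A filament is built from pairs of 1 type I (acidic) chain and 1 type II (basic or neutral) chain, and an unpaired chain is usually degraded. KRT8 and KRT18 are the basic pair of simple epithelia, KRT7 is a type II chain of ducts and lung epithelium, and KRT19 is a type I chain of simple epithelia with almost no tail. KRT80 is a type II chain of many epithelia, KRT81 is a type II chain of hair, KRT10 is the type I chain of suprabasal epidermis, and KRT15 is a type I chain of basal keratinocytes.

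Library totals ran from 22.8 to 27.6 M estimated counts, and the share of mitochondrial counts from 5.89% to 7.16%, the highest in shCtrl replicate 3. This library stood apart from its group: the chi-square per degree of freedom between its counts and those of the other shCtrl libraries was 6.78 and 5.06, against 2.36 to 3.30 for every other pair within a group and 6.20 to 6.61 between shCtrl replicate 1 and the shHES4 libraries. Without it no call of the 8 keratins changed in any of the 3 comparisons. HES1 went against its label: it read 9.11, 6.40 and 8.32 CPM (counts scaled to a common library size) in the libraries labelled shHES1, against 6.99, 6.55 and 7.17 CPM in shCtrl, with a log2 fold change of 0.20 ± 0.12 (SE, edgeR adjusted p = 0.345). HES4 was lower than in shCtrl both in the libraries labelled shHES1, with a log2 fold change of -0.59 ± 0.10 (edgeR adjusted p = 0.00076), and in those labelled shHES4, with -0.46 ± 0.10 (edgeR adjusted p = 0.00992). Every direction below is therefore that of libraries named by their labels. Of the epithelial markers CDH1 averaged 172 CPM and EPCAM 1.70 CPM over the 9 libraries. Of 9 alveolar type 2 markers SFTPA1 had no count and SFTPC, SFTPB and NKX2-1 averaged 0.0496, 0.0315 and 0.0380 CPM, while the lipid transporter gene ABCA3 averaged 79.5 CPM. The 9 summed to 102 to 103 CPM in shHES1, 84.4 to 90.3 CPM in shHES4 and 91.8 to 98.5 CPM in shCtrl. Of 6 leukocyte markers CD3E had no count and PTPRC averaged 0.00909 CPM, while their summed level, almost all CD68 (a lysosomal protein that epithelial lines also express), was 76.7 to 79.8 CPM in shHES1, 105 to 109 CPM in shHES4 and 80.2 to 95.6 CPM in shCtrl. The 8 fibroblast markers summed to 21.0 to 21.3 CPM in shHES1, 11.3 to 14.1 CPM in shHES4 and 13.9 to 23.5 CPM in shCtrl, and the part of these differences in the keratin results was not tested.

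The keratins were abundant and unequal. Together the 8 members held 0.842% to 0.862% of all counts in shHES1, 0.965% to 1.01% in shHES4 and 0.894% to 0.917% in shCtrl, and the 3 ranges did not overlap. KRT7, KRT8, KRT18 and KRT81 made up 97.7% to 98.3% of those counts in every library. Per kilobase of the principal transcript, KRT8 stood highest, at 1775 ± 34.8 CPM in shHES1, 2098 ± 41.8 CPM in shHES4 and 1957 ± 12.4 CPM in shCtrl (SD, n = 3). KRT18 followed, with means of 1003 CPM per kilobase in shHES1, 1298 in shHES4 and 1227 in shCtrl. KRT81 had 993 in shHES1, 1128 in shHES4 and 997 in shCtrl, and KRT7 had 814 in shHES1, 862 in shHES4 and 848 in shCtrl. The libraries of KRT18 and KRT81 overlapped on this scale in shHES1, so their order there was not resolved. A wide gap separated these 4 genes from KRT19, with 44.4 CPM per kilobase in shHES1, 39.1 in shHES4 and 26.8 in shCtrl, and from KRT80, with 25.9 in shHES1, 23.1 in shHES4 and 25.3 in shCtrl. KRT19 and KRT80 overlapped on this scale in shCtrl. KRT10 averaged 13.4 in shHES1, 11.8 in shHES4 and 16.6 in shCtrl, and KRT15 only 0.327 in shHES1, 0.432 in shHES4 and 0.361 in shCtrl.

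The order at the top depends on the length used. Per kilobase of all annotated exons, of which KRT8 has 6881 bases against 1882 in its principal transcript, KRT81 stood first, with the values above, since all its annotated exons are in its principal transcript. KRT18 then had 487 CPM per kilobase in shHES1, 630 in shHES4 and 596 in shCtrl, and KRT8 had 485 in shHES1, 574 in shHES4 and 535 in shCtrl. KRT7 had 349 in shHES1, 369 in shHES4 and 363 in shCtrl. KRT18 and KRT8 overlapped on that scale in shHES1. KRT19 stood above KRT80 in shHES1 (26.4 against 23.0) and in shHES4 (23.2 against 20.5), but below it in shCtrl (15.9 against 22.4).

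**Figure D1:**
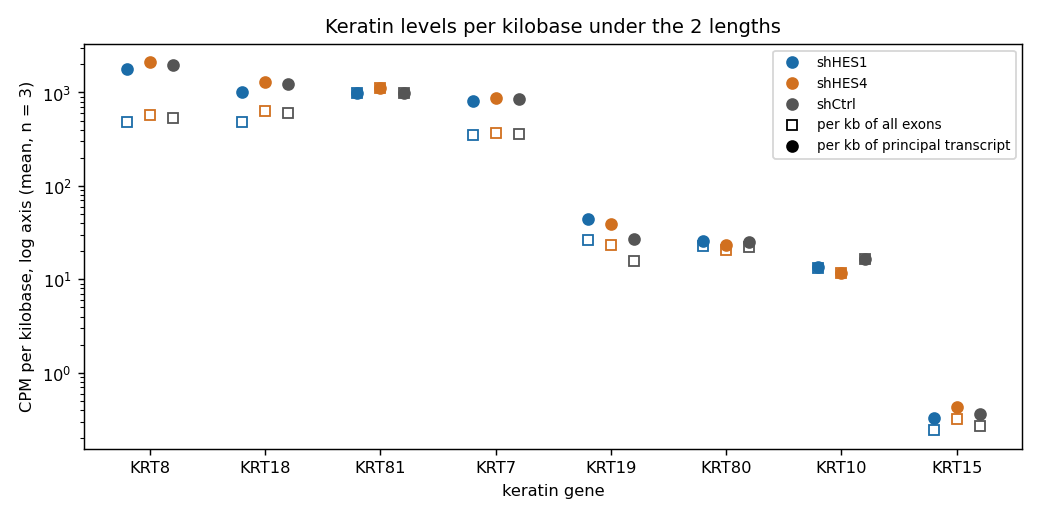
Mean CPM per kilobase of each keratin gene (log axis, n = 3 libraries per group) in shHES1, shHES4 and shCtrl, per kilobase of the principal transcript (filled circles) and of all annotated exons (open squares). KRT8, KRT18, KRT81 and KRT7 lie far above KRT19, KRT80 and KRT10 under both lengths, and KRT15 lies lowest.

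All 8 members were set against shCtrl for each hairpin and then directly between the hairpins. In shHES1 against shCtrl, KRT19 rose and KRT8 and KRT18 fell, 3 of 8 members at an edgeR adjusted p under 0.05, where 9.73% of all genes tested were called (5.25% higher, 4.48% lower). With total counts as the scaling 68.1% of those calls were higher, against 54.0% as reported, and no keratin call changed. In shHES4 against shCtrl, KRT8, KRT19 and KRT81 rose and KRT10 fell, 4 of 8, where 5.94% of all genes were called (3.24% higher, 2.7% lower). In shHES1 against shHES4, KRT19 and KRT80 were higher and KRT8, KRT18 and KRT81 lower, 5 of 8, where 15.1% of all genes were called (7.41% higher, 7.65% lower). The median log2 fold change of the members was -0.101 in shHES1 against shCtrl (-0.00276 over all genes), 0.0909 in shHES4 against shCtrl (0.00103 over all genes) and -0.133 between the hairpins (-0.000767 over all genes). Both comparisons with shCtrl share the same 3 control libraries. The background shares cover genes of all levels, and shares among genes as abundant as the members were not computed. In bulk RNA, fewer cells that express a gene and less RNA per cell cannot be told apart.

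**Figure D2:**
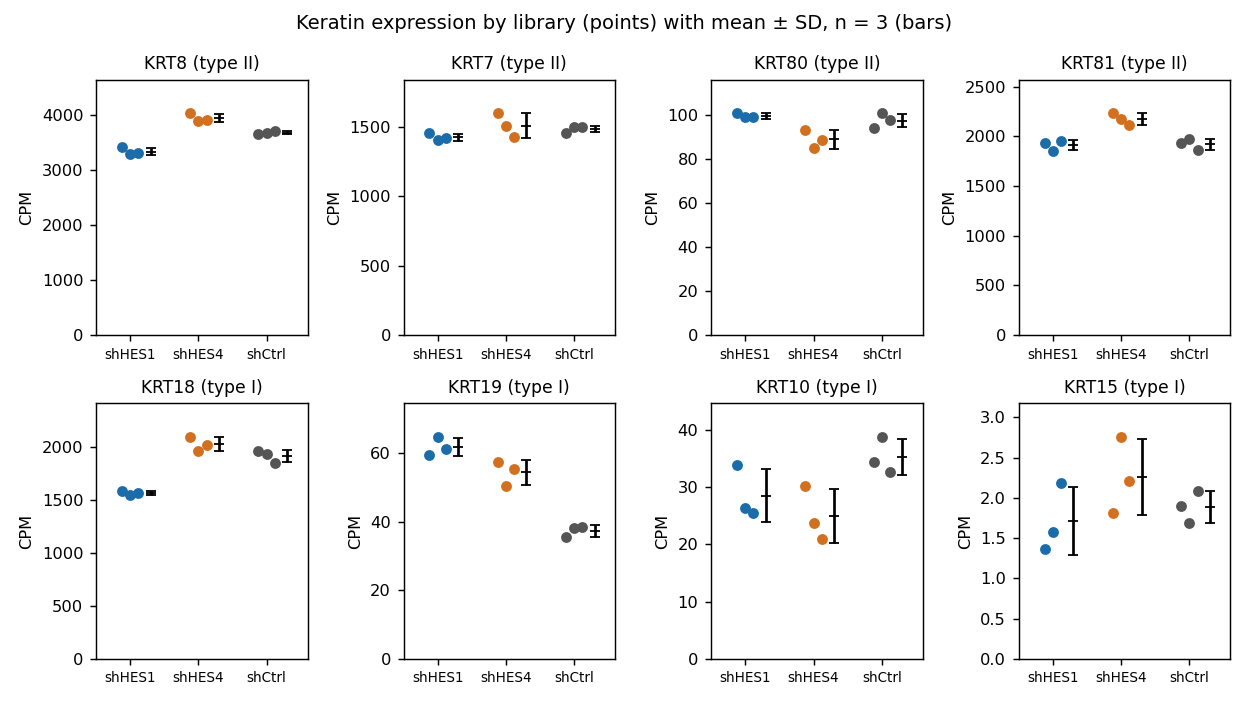
CPM of the 8 keratin members in each of the 3 shHES1, 3 shHES4 and 3 shCtrl libraries (points), with the mean and SD of each group beside them (bars); each panel starts at 0 and has its own scale. KRT19 is higher in all 6 shHES libraries than in shCtrl, and KRT18 and KRT8 are lowest in shHES1.

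KRT19 had the largest change of the members against shCtrl. It read 59.4, 64.7 and 61.2 CPM in shHES1 and 57.2, 50.4 and 55.3 CPM in shHES4, against 35.4, 38.0 and 38.5 CPM in shCtrl. Every library of either shHES group stood above every shCtrl library, and the lowest shHES1 library stood above the highest shHES4 library. The means were 61.7 ± 2.66 CPM in shHES1, 54.3 ± 3.52 CPM in shHES4 and 37.3 ± 1.67 CPM in shCtrl (SD, n = 3). The log2 fold change was 0.73 ± 0.05 in shHES1 (1.66-fold, edgeR adjusted p = 8.22e-08) and 0.54 ± 0.06 in shHES4 (1.46-fold, edgeR adjusted p = 6.31e-06). Both calls held in all 21 fits run, with values from 0.69 to 0.76 in shHES1 and from 0.50 to 0.59 in shHES4. Between the hairpins KRT19 was higher in shHES1 by 0.19 ± 0.05 on the log2 scale (edgeR adjusted p = 0.0226). This call ended without shHES1 replicate 2 (0.114), shHES1 replicate 3 (0.0536) or shHES4 replicate 2 (0.115). KRT19 occupies bases 41523617 to 41528308 of chromosome 17 (GRCh38, minus strand), with 6 exons in its principal transcript. None of its 75-base coding windows occurred in another annotated gene, its counts were whole numbers in all 9 libraries, and its 5 pseudogene rows held no count.

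KRT8 and KRT18, the basic pair, both fell in shHES1. KRT18 read 1582, 1550 and 1570 CPM in shHES1 and 2097, 1967 and 2020 CPM in shHES4, against 1963, 1934 and 1852 CPM in shCtrl. All shHES1 libraries lay below all others, and every shHES4 library lay above the shCtrl libraries by a narrow margin. KRT18 had a log2 fold change of -0.29 ± 0.03 in shHES1 (0.818-fold, edgeR adjusted p = 2.98e-06) and of 0.08 ± 0.03 in shHES4 (edgeR adjusted p = 0.119), which did not pass. Directly, it was lower in shHES1 than in shHES4 by -0.37 ± 0.03 (0.773-fold, edgeR adjusted p = 7.36e-08), the largest difference between the hairpins among the called members.

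KRT8 read 3415, 3295 and 3310 CPM in shHES1 and 4040, 3898 and 3910 CPM in shHES4, against 3662, 3681 and 3709 CPM in shCtrl. The 3 groups did not overlap, with shHES1 lowest and shHES4 highest. The log2 fold change of KRT8 was -0.14 ± 0.02 in shHES1 (0.907-fold, edgeR adjusted p = 0.000795) and 0.10 ± 0.02 in shHES4 (1.07-fold, edgeR adjusted p = 0.0176), and the direct difference was -0.24 ± 0.02 (0.846-fold, edgeR adjusted p = 1.41e-06). The rise of KRT8 in shHES4 was the weaker call: it ended without shCtrl replicate 2 (adjusted p = 0.0715), without shHES4 replicate 1 (0.0779) and with those 6 libraries fitted alone (0.0563). The calls of KRT8 and KRT18 in shHES1, against shCtrl and against shHES4, held in all 21 fits, and KRT18 in shHES4 against shCtrl was called in none of the 21.

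The 2 genes are neighbours. KRT8 occupies bases 52897187 to 52949954 of chromosome 12 (GRCh38, minus strand) and KRT18 bases 52948871 to 52952901 (plus strand), and their annotated exons share 525 bases, 7.6% of the exonic length of KRT8 and 16.3% of that of KRT18. The principal transcript of KRT8 starts at base 52906618, so the shared bases lie outside it, in exons of other KRT8 transcripts. The sources do not say whether counting used strand, so reads in these bases cannot be assigned. Both genes have many processed copies: 51 KRT8 pseudogene rows held 2974 counts, 0.364% of the 816148 counts of KRT8, and 67 KRT18 pseudogene rows held 267 counts, 0.0652% of those of KRT18. Of the 75-base coding windows of KRT8, 23.4% occurred in another annotated gene, and of those of KRT18, 7.2%. The pseudogene with most counts, KRT8P12, read 10.4, 11.4 and 11.0 CPM in shHES1, 10.1, 11.5 and 9.96 CPM in shHES4 and 10.9, 9.71 and 10.0 CPM in shCtrl. Its groups overlapped and it was called in no comparison.

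KRT7, the type II chain of ducts and lung epithelium, passed the test in no comparison. It read 1455, 1405 and 1422 CPM in shHES1 and 1602, 1505 and 1428 CPM in shHES4, against 1460, 1499 and 1503 CPM in shCtrl. The shHES1 libraries all lay just below the shCtrl libraries, while the shHES4 libraries spread across them. The log2 fold changes were -0.06 ± 0.03 in shHES1 (edgeR adjusted p = 0.324), 0.02 ± 0.03 in shHES4 (edgeR adjusted p = 0.786) and -0.08 ± 0.03 between the hairpins (edgeR adjusted p = 0.119). The direct difference was called in 1 of 21 fits, without shHES4 replicate 3 (adjusted p = 0.0193). KRT7 occupies bases 52232520 to 52252186 of chromosome 12 (plus strand). It shares 282 exonic bases with its antisense gene KRT7-AS, which averaged 14.4 CPM in shHES1, 16.0 CPM in shHES4 and 14.0 CPM in shCtrl and was not called.

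KRT81, a type II chain of hair, stood among the abundant keratins of these cells, between KRT8 and KRT7 by CPM. It read 1938, 1858 and 1953 CPM in shHES1 and 2236, 2178 and 2112 CPM in shHES4, against 1937, 1971 and 1859 CPM in shCtrl. The shHES4 libraries lay above all others, and the shHES1 and shCtrl libraries overlapped. KRT81 had a log2 fold change of 0.18 ± 0.03 in shHES4 (1.13-fold, edgeR adjusted p = 0.00113), of -0.00 ± 0.03 in shHES1 (edgeR adjusted p = 0.951) and of -0.18 ± 0.03 between the hairpins (0.881-fold, edgeR adjusted p = 0.000348). Both calls held in all 21 fits.

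KRT81 has near-identical neighbours, and 47.1% of its 75-base coding windows occur in other genes, the largest share among the members. It occupies bases 52285913 to 52291534 of chromosome 12 (minus strand), within the span of KRT86 on the opposite strand, with no exonic base shared. Its coding sequence matches that of KRT86 at 94.5% of 1448 aligned bases and that of KRT83 at 93.4%, and 42.5% of its 75-base windows also occur in KRT86. The window length was chosen and the read length was not given, so these are not shares of ambiguous reads. The 120 coding bases where KRT81 and KRT86 differ most are printed with capitals at the 19 bases that differ, out of 80 over the whole alignment; they start at coding base 1207 and show where reads can tell the genes apart.
KRT81: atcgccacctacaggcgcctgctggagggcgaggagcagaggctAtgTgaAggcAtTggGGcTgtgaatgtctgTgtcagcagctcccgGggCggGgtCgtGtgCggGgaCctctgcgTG
KRT86: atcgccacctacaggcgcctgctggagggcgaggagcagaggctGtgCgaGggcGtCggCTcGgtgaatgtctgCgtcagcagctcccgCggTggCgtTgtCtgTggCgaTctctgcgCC
KRT86, also a type II chain of hair, read 3.43, 3.62 and 3.05 CPM in shHES1, 4.29, 2.98 and 3.85 CPM in shHES4 and 2.66, 2.87 and 3.46 CPM in shCtrl, and KRT83 averaged 1.11 CPM over all libraries. Neither was called in any comparison. The other hair and nail keratins listed were lower still, with KRT34 at 0.248 CPM, and KRT33A and KRT35 had no count. The counts of KRT81 were not whole in any of the 9 libraries, and neither were those of KRT7, KRT8 and KRT18.

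KRT80, a type II chain found in many epithelia, passed the test only in the direct comparison of the hairpins. It read 101, 99.1 and 99.1 CPM in shHES1 and 93.5, 85.0 and 88.7 CPM in shHES4, against 94.3, 101 and 98.0 CPM in shCtrl. All shHES4 libraries lay below the shHES1 libraries, and below the shCtrl libraries by a narrow margin. The log2 fold change was 0.16 ± 0.04 between shHES1 and shHES4 (1.12-fold, edgeR adjusted p = 0.00969), 0.03 ± 0.04 for shHES1 over shCtrl (edgeR adjusted p = 0.693) and -0.13 ± 0.04 for shHES4 over shCtrl (edgeR adjusted p = 0.069). The direct call ended without shHES4 replicate 2 (adjusted p = 0.0551), and the difference from shCtrl in shHES4 was called in 5 of 21 fits, among them those without shCtrl replicate 1 (0.0474) and without shHES4 replicate 1 (0.0265). KRT80 occupies bases 52168996 to 52192000 of chromosome 12 (minus strand).

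KRT10, the type I chain of suprabasal epidermis, fell in shHES4. It read 33.8, 26.3 and 25.4 CPM in shHES1 and 30.2, 23.7 and 21.0 CPM in shHES4, against 34.4, 38.8 and 32.7 CPM in shCtrl. The shHES4 libraries lay below all shCtrl libraries, and shHES1 replicate 1 lay within the shCtrl range while the other shHES1 libraries lay below it. The log2 fold change was -0.50 ± 0.12 in shHES4 (0.706-fold, edgeR adjusted p = 0.0142), -0.31 ± 0.11 in shHES1 (edgeR adjusted p = 0.103) and 0.20 ± 0.12 between the hairpins (edgeR adjusted p = 0.305). The call in shHES4 ended with DESeq2 (adjusted p = 0.0706) and without shCtrl replicate 2 (0.0727), shHES4 replicate 2 (0.0704) or shHES4 replicate 3 (0.0868). KRT10 in shHES1 was called in 4 of 21 fits, among them those without shHES1 replicate 1 (adjusted p = 0.0199) and without a filter on low counts (4.48e-05). Without the filter its log2 fold change stayed at -0.31, so the smaller p does not reflect a larger change. The gene occupies bases 40818117 to 40822595 of chromosome 17 (minus strand), and 56 of its exonic bases overlap the opposite-strand gene KRT10-AS1, which was called in no comparison.

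KRT15, the type I chain of basal keratinocytes, was barely present. It read 1.37, 1.58 and 2.18 CPM in shHES1 and 1.81, 2.76 and 2.21 CPM in shHES4, against 1.90, 1.69 and 2.08 CPM in shCtrl. The groups overlapped. Its log2 fold changes were -0.14 ± 0.23 in shHES1 (edgeR adjusted p = 0.777), 0.26 ± 0.23 in shHES4 (edgeR adjusted p = 0.603) and -0.40 ± 0.23 between the hairpins (edgeR adjusted p = 0.268). With these errors a change as small as that of KRT8 could not have been seen. KRT15 occupies bases 41513743 to 41522529 of chromosome 17 (minus strand), beside KRT19.

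**Figure D3:**
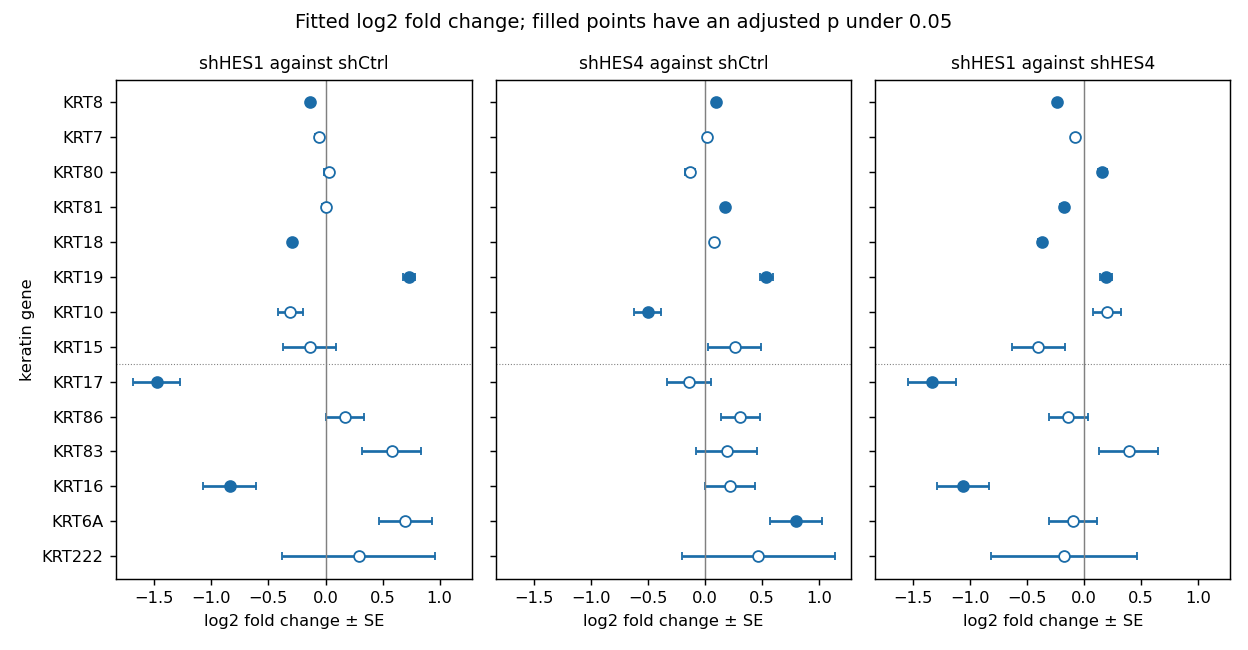
Log2 fold changes (points) with their standard errors (bars) for the 8 members (above the dotted line) and the 6 other keratin genes tested (below it), for each shHES group against shCtrl and, at the right, for shHES1 against shHES4; filled points have an edgeR adjusted p under 0.05. KRT19 is the only member above 0.50 in the comparisons with shCtrl, and KRT17 and KRT16 lie furthest to the left in both shHES1 panels.

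Since type I and type II chains pair, the balance of their transcripts was measured within each library, where no scaling between libraries enters. The protein chains were not measured. Reads in the 525 exonic bases that KRT8 and KRT18 share cannot be assigned and may enter either term of their ratio. Per kilobase of exon, KRT8 to KRT18 stood at 1.01, 0.994 and 0.986 in shHES1 and 0.901, 0.927 and 0.905 in shHES4, against 0.872, 0.890 and 0.936 in shCtrl. The shHES1 libraries lay above all others, and the shHES4 and shCtrl libraries overlapped. Per kilobase of the principal transcript the same ratio stood at 1.79, 1.76 and 1.75 in shHES1, 1.60, 1.65 and 1.61 in shHES4 and 1.55, 1.58 and 1.66 in shCtrl, so its size depends on the length used and the differences in log2 do not. On the log2 scale the ratio was higher by 0.148 in shHES1 than in shCtrl and by 0.130 in shHES1 than in shHES4 (exact two-sided permutation p = 0.1 each). That is the smallest p that 3 libraries against 3 allow, so the design could not pass 0.05. In shHES4 the ratio was 0.0188 above shCtrl (exact permutation p = 0.6), and it moved to 0.0479 without shCtrl replicate 3 and to -0.00303 without shCtrl replicate 1.

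The transcript balance of all 4 type II to all 4 type I members showed the same separation of shHES1. Per kilobase of exon it stood at 3.53, 3.46 and 3.54 in shHES1 and 3.13, 3.23 and 3.07 in shHES4, against 2.99, 3.06 and 3.11 in shCtrl. Again the shHES1 libraries did not overlap with any others. The log2 ratio was higher by 0.202 in shHES1 than in shCtrl and by 0.160 than in shHES4 (exact permutation p = 0.1 each), and by 0.0421 in shHES4 than in shCtrl (exact permutation p = 0.2). The value for shHES4 was 0.0162 per kilobase of the principal transcript, 0.0217 without shHES4 replicate 2 and 0.0259 without shCtrl replicate 1. KRT8, KRT7 and KRT81 carry nearly all of the type II sum and KRT18 most of the type I sum. KRT18 is thus the denominator of the first ratio and most of that of the second. In the second, KRT19 added 26.4 CPM per kilobase of exon in shHES1, 23.2 in shHES4 and 15.9 in shCtrl, beside 487, 630 and 596 for KRT18.

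**Figure D4:**
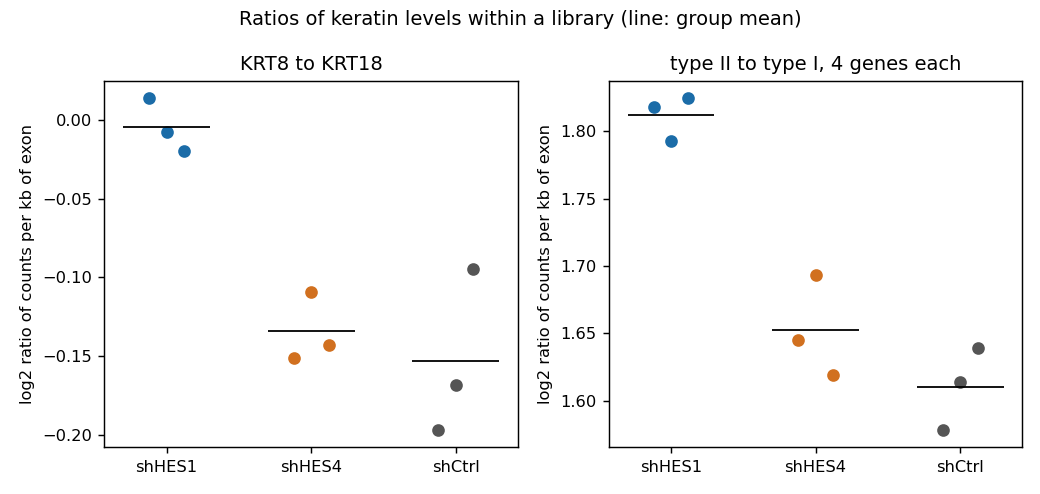
Log2 ratio of KRT8 to KRT18 (left) and of the 4 type II to the 4 type I members (right), in counts per kilobase of exon, for each library of shHES1, shHES4 and shCtrl (points) with the group mean (line); the axes do not start at 0. The shHES1 libraries lie above all shHES4 and shCtrl libraries in both panels.

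Outside the 8 members the keratin family was nearly silent. The member KRT15 lay in the same low range, with 435 counts over the 9 libraries, against 751 for KRT86 and 598 for KRT6A. Of 55 keratin genes in the table, 14 were tested, 26 had counts too low to test and 15 had no count, and the 8 members held 99.86% of all keratin gene counts. Of the 6 other genes tested, KRT16 and KRT17 fell in shHES1, KRT6A rose in shHES4, and KRT16 and KRT17 were lower in shHES1 than in shHES4. Over all genes tested, 4.48% were called lower in shHES1, 3.24% higher in shHES4 and 7.65% lower in shHES1 than in shHES4. KRT17, a type I chain of basal cells and wounded skin, read 0.831, 1.12 and 1.43 CPM in shHES1 and 2.83, 2.85 and 2.83 CPM in shHES4, against 3.11, 3.46 and 2.83 CPM in shCtrl. All shHES1 libraries lay below all others. Its log2 fold change of -1.48 ± 0.21 in shHES1 (edgeR adjusted p = 0.000123) rests on 90 counts in shHES1, against 232 in shCtrl, and held in all 20 fits that gave it a value. In shHES4 KRT17 had -0.14 ± 0.19 (edgeR adjusted p = 0.751), and the direct difference was -1.33 ± 0.21 (edgeR adjusted p = 0.000235).

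KRT16, a type I chain induced in stressed epidermis, read 0.976, 0.963 and 1.02 CPM in shHES1 and 1.64, 2.24 and 2.30 CPM in shHES4, against 2.01, 1.73 and 1.54 CPM in shCtrl. Its log2 fold change was -0.84 ± 0.23 in shHES1 (edgeR adjusted p = 0.0288) and -1.06 ± 0.23 between the hairpins (edgeR adjusted p = 0.00406). The call against shCtrl held in 12 of 20 fits. It ended with DESeq2 (0.0592), without shCtrl replicate 1 (0.117), without shCtrl replicate 2 (0.0713) and without any 1 of the 3 shHES1 libraries (0.0754 to 0.0922). KRT6A, the type II partner of KRT16 in epidermis, read 1.99, 2.89 and 4.10 CPM in shHES1 and 3.14, 3.20 and 3.24 CPM in shHES4, against 1.78, 2.07 and 1.67 CPM in shCtrl. The log2 fold change of KRT6A was 0.70 ± 0.23 in shHES1 (edgeR adjusted p = 0.062) and 0.80 ± 0.23 in shHES4 (edgeR adjusted p = 0.0487). The call in shHES4 held in 11 of 20 fits and ended without any 1 of the shHES4 or shCtrl libraries, and without shHES1 replicate 2 (adjusted p up to 0.128). KRT6A shares 35.1% of its 75-base coding windows with other genes, mostly KRT6C, and its shHES1 libraries spread widely. KRT222, an unusual type I relative, read 0.151 to 1.08 CPM over the libraries and was not called.

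Genes of proteins that anchor or link keratin filaments were examined next, against the 9.73%, 5.94% and 15.1% of all genes called in shHES1, in shHES4 and between the hairpins. Of 15 tested linker and desmosome plaque genes, 1 was higher and 3 lower in shHES1 (median log2 fold change -0.00), 1 higher and 1 lower in shHES4 (median -0.05), and 2 higher and 2 lower in shHES1 against shHES4 (median 0.03). PPL, which encodes the cytolinker periplakin, read 10.2, 10.0 and 10.5 CPM in shHES1 and 6.02, 6.40 and 6.64 CPM in shHES4, against 5.51, 6.12 and 6.46 CPM in shCtrl. All shHES1 libraries lay above all others, and its log2 fold change was 0.77 ± 0.10 in shHES1 (edgeR adjusted p = 4.32e-05) and 0.69 ± 0.10 between the hairpins (edgeR adjusted p = 8.07e-05). The large cytolinkers MACF1 and PLEC and the desmosomal anchor DSP fell in shHES1 by 0.21, 0.16 and 0.15 on the log2 scale. The call of PLEC ended without shHES1 replicate 3 (adjusted p = 0.0635), and that of DSP without the same library (0.115) and with total counts as the scaling. PKP3, a desmosome plaque protein, fell by 0.24 in shHES4, where the call ended without shHES4 replicate 3 (0.0512), and was higher by 0.32 in shHES1 than in shHES4. TCHP, which encodes the keratin-binding protein trichoplein, had 0.17 in shHES4, a call lost in 12 of 20 alternatives, including the loss of any library but shCtrl replicate 3 (up to 0.138), and was lower in shHES1 than in shHES4 by -0.28.

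The other intermediate filament genes are read against the same shares of all genes, with 4.48% lower in shHES1 and 2.7% in shHES4. Of 12 tested, 1 was higher and 5 lower in shHES1 (median log2 fold change -0.07), 2 lower in shHES4 (median -0.05), and 1 higher and 3 lower between the hairpins (median -0.02). Of the 5 lower calls in shHES1, those of SYNM, LMNB1 and LMNB2 ended without shCtrl replicate 2 (adjusted p = 0.0891, 0.0924 and 0.132) and with total counts as the scaling. INA, encoding the neuronal filament internexin, fell by 0.36 ± 0.04 in shHES1 (edgeR adjusted p = 1.86e-05), and SYNC, encoding the muscle filament partner syncoilin, by 0.62 ± 0.11 (edgeR adjusted p = 0.00101). NEFL, the neurofilament light chain, read 27.5, 26.2 and 26.7 CPM in shHES1 and 18.5, 19.0 and 17.1 CPM in shHES4, against 22.7, 20.3 and 22.7 CPM in shCtrl. The 3 groups did not overlap: NEFL rose by 0.29 ± 0.06 in shHES1 (edgeR adjusted p = 0.00518) and had -0.27 ± 0.07 in shHES4 (edgeR adjusted p = 0.022), where the call ended with those 6 libraries alone and without shCtrl replicate 1 or 3 or shHES4 replicate 3 (up to 0.109). The nuclear lamina gene LMNB1 fell in shHES4 by 0.21 ± 0.04 (edgeR adjusted p = 0.00347).

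Transcription factors of epithelial cells are read against the same 9.73%, 5.94% and 15.1% of all genes called in shHES1, in shHES4 and between the hairpins. Of 11 tested, 2 were higher and 1 lower in shHES1 (median log2 fold change -0.09), 1 lower in shHES4 (median -0.06), and 2 higher and 1 lower between the hairpins (median -0.03). TP63, a regulator of basal keratinocytes, read 5.49, 6.90 and 5.57 CPM in shHES1 and 3.76, 4.12 and 4.22 CPM in shHES4, against 3.65, 2.83 and 3.25 CPM in shCtrl. It rose by 0.88 ± 0.14 in shHES1 (edgeR adjusted p = 0.000484) with no overlap of these groups. The epithelial factor KLF4 fell by 0.43 ± 0.06 in shHES1 (edgeR adjusted p = 0.000104), EHF rose by 0.17 ± 0.04 (edgeR adjusted p = 0.00409), and FOXA2 had -0.26 ± 0.07 in shHES4 (edgeR adjusted p = 0.0479), a call lost in 12 of 20 alternatives, including the loss of any library but shCtrl replicate 1 (up to 0.171).

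The remaining lists have the same background, with 9.73% of all genes called in shHES1, 5.94% in shHES4 and 15.1% between the hairpins. Of 11 tested epithelial surface and junction genes, 1 was higher and 2 lower in shHES1 (median log2 fold change 0.21), 1 lower in shHES4 (median 0.10), and 2 higher and 2 lower between the hairpins (median 0.13). Against shCtrl these medians thus lay above 0 while more genes passed as lower than as higher. Both lower calls in shHES1, SPINT2 and CLDN4, ended without shHES1 replicate 2 (adjusted p = 0.0820 and 0.0863), and the lower call in shHES4, MUC1, ended in 4 of 20 alternatives (up to 0.112). The higher call in shHES1, DSC2, had a log2 fold change of 0.33 ± 0.09 (edgeR adjusted p = 0.0299). It was lost in 7 of 20 alternatives, DESeq2 among them (up to 0.15). The tight junction gene CLDN4 was lower in shHES1 than in shHES4 by -0.59 ± 0.10 (edgeR adjusted p = 0.000477), and the mucin gene MUC1 and the adherens junction gene CDH1 were higher by 0.54 ± 0.08 and 0.16 ± 0.04 (edgeR adjusted p = 0.000144 and 0.00547). Of 17 tested signalling and chaperone partners of keratins, 1 was higher and 3 lower in shHES1 (median log2 fold change -0.02), 1 lower in shHES4 (median -0.02), and 2 higher and 3 lower between the hairpins (median 0.00). SFN, the epithelial 14-3-3 protein, fell by 0.29 ± 0.05 in shHES1 (edgeR adjusted p = 0.00129) and HSPA8, a chaperone, by 0.12 ± 0.02 (edgeR adjusted p = 0.00171), while the kinase gene PRKCE rose by 0.32 ± 0.05 (edgeR adjusted p = 0.000373). YWHAZ, another 14-3-3 gene, had -0.11 in shHES4, a call that ended without shCtrl replicate 2, without shHES4 replicate 3 and with those 6 libraries alone (up to 0.0668).

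The genes whose log2 CPM followed each member most closely were found among 11571 genes over the 9 libraries, which share their groups, depth and scaling, so these values are descriptions. KRT18 followed the cell cycle factor gene E2F1 (Pearson r = 0.997) and PTGR1 (0.988), and KRT8 followed the adhesion gene CEACAM6 (0.989) and the receptor gene EPHA2 (0.986). KRT19 followed FAM3C (0.987) and the matrix gene TGFBI (0.978), KRT81 the interferon-induced gene IFITM1 (0.977) and MYL12B (0.975), and KRT80 GABARAP (0.978) and OBSL1 (0.970). KRT10 followed ANTKMT (0.983) and C4orf48 (0.966). KRT7 and KRT15, which were not called, had the weakest best matches, NOCT and THEM6 at 0.962 and 0.960 and KCNK6 and PET117 at 0.934 and 0.923. No keratin was among the 2 closest genes of any member, KRT8 and KRT18 included. Only those 2 genes per member were kept, and genes averaging under 5 CPM were left out. How closely KRT8 and KRT18 followed each other is therefore not shown by these lists.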

How the data were processed

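RNA was measured in 9 libraries of A549 cells, grouped by title and hairpin label. Per the labels' protocols, RNA was taken with TRIzol and libraries were made with a SMARTer kit. Values are estimated counts per Ensembl gene as the authors deposited them, not normalised, as their differing library totals show. The counter, its strand setting, the read length and the aligner were not given in the sources used here. Since the builds in the submitters' processing notes are of mouse, no build was taken from them. Of nonzero deposited counts 35.5% were not whole (tolerance 1e-06), and all were rounded.

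Genes were kept by filterByExpr, scaled by TMM and fitted over all 3 groups in R 4.3.3 with edgeR 4.0.16 (quasi-likelihood F test, Benjamini-Hochberg adjustment over 16903 genes, threshold 0.05, 6 residual degrees of freedom). The standard error is the log2 fold change over the square root of F. CPM use the TMM factors. Values under the 20 alternative fits, with DESeq2 1.42.0 among them, are described below. Annotation is GENCODE release 29 on GRCh38. Members, gene lists and the naming rule were chosen with earlier results of these data known. Lists are described by counts and medians with no set test. The rule names the members, other tested keratins, pseudogene rows with at least 100 counts, up to 4 genes per list and comparison by adjusted p, and the 2 closest genes per member. Of 3 such pseudogenes, KRT8P46 and KRT8P33 were called in no comparison. Some sequences of the members are not reported here.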

Additional observations from a re-analysis of the deposited data

Results flagged for a closer look

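In 5 of the 8 keratins, against 15.1% of all genes tested, the response to the hairpins differed between shHES1 and shHES4 by the direct test of the difference, edgeR's quasi-likelihood test. As both responses are taken against the same shCtrl libraries, this difference is that of the shHES groups themselves. It was -0.37 on the log2 scale for KRT18, -0.24 for KRT8 and -0.18 for KRT81, and 0.19 for KRT19 and 0.16 for KRT80. KRT8 passed the test against shCtrl in opposite directions, at -0.14 in shHES1 and 0.10 in shHES4, while KRT19 was higher in both. The differences of KRT18, KRT8 and KRT81 held in all 21 fits, that of KRT80 in 20 and that of KRT19 in 18. The 15.1% covers genes of all levels, and the share among genes as abundant as the members was not computed. The members were also chosen with earlier results of these data known.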

How the results depend on the processing

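The fits named in processing were compared with 20 alternatives: other scalings, DESeq2, other filters, fewer groups, each library left out, a GC content and length correction, the replicate block, pseudogene rows added to their parents, and counts rounded down. Of 2965 alternative values of 50 single genes, 2800 stayed on their side of the threshold, 104 lost a call and 61 gained one. No called value reversed, and 42 of the 2800, called in neither fit, changed sign. Leaving out 1 library gave 1084 to 1800 genes called in shHES1 against shCtrl (1644 in the fit reported; lowest without shHES1 replicate 2). It gave 2 to 5 keratins called in shHES4 against shCtrl (4 reported; lowest without shCtrl replicate 2) and 3 to 6 in shHES1 against shHES4 (5 reported; lowest without shHES4 replicate 2). Per kilobase of the principal transcript, a length chosen after seeing the data, the type II to type I difference of shHES1 was 0.174, against 0.202 per kilobase of all exons. With total counts as the scaling, 68.1% of the calls were higher in shHES1 against shCtrl (54.0% as reported); no keratin call changed. With the replicate block 1443, 850 and 2297 genes and 4, 4 and 5 keratins passed in shHES1 and then shHES4 against shCtrl, and in the direct comparison of the hairpins. The block added the call of KRT10 in shHES1 (adjusted p = 0.0343) and ended those of KRT16 in shHES1 (0.0503) and KRT6A in shHES4 (0.0556). Over all genes tested, deviations of same-numbered libraries correlated at only -0.0514 to 0.0474. Whether single genes such as KRT10 follow the replicate numbers was not tested. Precision is limited most for KRT15 and the other low keratins, and by 3 libraries per group.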
